A study of Mus musculus with 60 samples.

Results

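Blastulas made by nuclear transfer (NT) from mouse embryonic fibroblasts (MEFs), called NTM blastulas, were compared with blastulas that had developed in vivo, gene by gene across the autosomes. The comparison took all 3 NTM and all 3 in vivo blastulas, 6 of the 60 libraries of the series, and each library was 1 whole embryo. The table held 27238 genes. Of these, 25848 lay on the numbered autosomes, and the 9033 with a mean of at least 0.5 RPKM over the 6 libraries were tested. RPKM is the number of reads scaled to the length of the exons and to the reads of the library. How levels compared between libraries depended on this scaling, as given below.

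The series followed single embryos of 3 types from the 1-cell embryo to the blastula, with the donor cells, in 20 groups of 3 libraries. In vivo embryos came from superovulated C57BL/6 females mated with DBA/2 males. For NTM embryos, a nucleus of a serum-starved BDF1 fibroblast was injected into an enucleated oocyte of a BDF1 female of 8 to 10 weeks. The reconstructed embryo was activated with strontium chloride, cytochalasin B and the histone deacetylase inhibitor Scriptaid, then cultured in vitro. NTC embryos were handled in the same way but took their nucleus from a cumulus cell, a cell that surrounds the ovulated oocyte. Injection, activation, Scriptaid and in vitro culture were thus shared by both NT groups and are described for no in vivo embryo, so their parts in a difference cannot be told apart. All 3 embryo types were of the BDF1 background (C57BL/6 crossed with DBA/2). The embryos were picked by their morphology.

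The blastula is the embryo in which an outer epithelium, the trophectoderm, has separated from the inner cell mass and pumps fluid into a cavity. Hippo signalling helps to set these fates, because the cofactor YAP1 works with TEAD4 in outer cells and is kept out of the nucleus in inner ones. The p53 pathway answers DNA damage and other stress by switching on genes that halt the cell cycle or lead to apoptosis. Sterol synthesis is switched on by SREBP factors when membranes hold little cholesterol.

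Differences were tested with limma on log2(RPKM + 1), and p-values were adjusted over the whole table by the Benjamini-Hochberg method. A gene was called at an adjusted p under 0.05 and a log2 difference of at least 1 in size. Differences below are NTM minus in vivo on that scale, which understates the change of genes with low RPKM. In bulk RNA of a whole embryo, fewer cells of a type and less RNA per cell cannot be told apart.

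The libraries differed between the groups before any single gene was considered. In vivo blastulas had 7514, 7528 and 7436 autosomal genes above 0 RPKM, and NTM blastulas had 13019, 12126 and 11126. The mean was 7492.7 ± 49.57 (SD, n = 3) in vivo and 12090.3 ± 947.0 (SD, n = 3) in NTM, a difference of 4597.7 genes (two-sided exact permutation test, p = 0.1, the smallest p that 3 against 3 libraries allow). Reads on genes numbered 15706680, 8557910 and 11483761 in the in vivo libraries and 17946553, 19413639 and 20683061 in the NTM libraries. After every library had been thinned to 8557910 reads, 7328 to 7788 genes of the table remained above 0 in vivo and 10992 to 13056 in NTM. The in vivo blastulas also had fewer genes above 0 than their own predecessors, since the 3 in vivo morulas had 10109, 10870 and 11069.

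**Figure D1:**
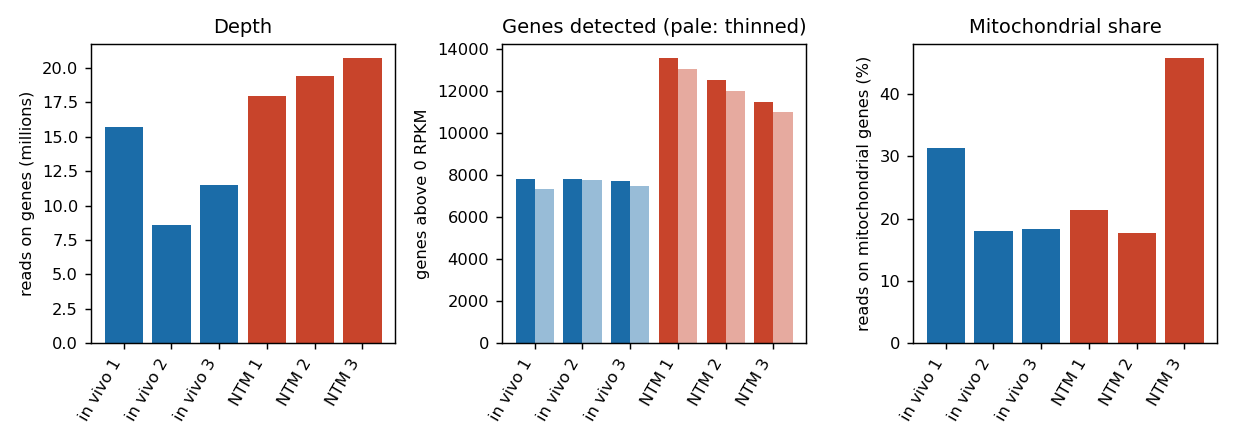
Reads on genes, genes above 0 RPKM (all genes of the table, with pale bars for reads thinned to equal depth) and the percent of reads on mitochondrial genes, 1 bar per blastula library, in vivo in blue and NTM in red. The 3 NTM libraries lie above the 3 in vivo libraries in depth and in genes detected, and the mitochondrial share of 45.8% stands out in NTM replicate 3.

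Mitochondrial genes took 31.4%, 18.0% and 18.4% of the reads in vivo and 21.5%, 17.7% and 45.8% in NTM. In vivo replicates resembled each other less than NTM replicates did. Across autosomal genes, which are not independent replicates, the Pearson correlation was 0.748 to 0.755 between in vivo libraries, 0.916 to 0.938 between NTM libraries and 0.757 to 0.794 between an in vivo and an NTM library. Each in vivo library thus correlated more with every NTM library than with the other in vivo libraries. The median gene tested had an SD between replicates of 0.91 in vivo and 0.63 in NTM on the log2 scale. In vivo, 3025 of the 9033 genes were at 0 in 1 or 2 of the 3 libraries, against 733 in NTM. Xist, which is expressed from an inactive X chromosome, was at 0 to 0.00355 RPKM in vivo and at 0.707 to 3.52 in NTM. Genes of the Y chromosome summed to 0.0276, 73.0 and 36.5 RPKM in vivo and to 0 to 0.0186 in NTM. In vivo replicate 1 had next to no signal from either, so its sex was not shown. No in vivo library had Xist at the NTM level, so sex and NT cannot be told apart in these libraries. The part of sex in the results was not tested.

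Markers of other cells were looked at in the same libraries. The summed level of 26 oocyte genes was 104.6 to 206.2 RPKM in vivo and 79.5 to 131.1 in NTM, so the sums overlapped. Dppa3, which is also in the epiblast list, gave 63.95, 48.34 and 88.44 RPKM of them in vivo and 48.22, 57.0 and 45.37 in NTM. Of the 26 genes, 21, 21 and 22 were at 0 in the in vivo libraries, against 13, 11 and 14 in the NTM libraries. The 30 fibroblast markers summed to 0.00545, 2.35 and 21.1 RPKM in vivo and to 19.9, 1.48 and 3.71 in NTM, against 16610 to 20270 in the MEFs themselves. Of these sums, Fn1 gave 0.00545, 1.67 and 20.9 RPKM in vivo and 9.27, 0.220 and 0.761 in NTM. Of the 30 markers, 29, 28 and 28 were at 0 in the in vivo libraries, against 18, 25 and 20 in the NTM libraries. Of 19 genes of the 2-cell embryo, 18 were among the autosomal genes. They summed to 0, 0.153 and 79.8 RPKM in vivo and to 0.0487, 12.4 and 0.380 in NTM. Tdpoz2 alone gave 0, 0.102 and 79.8 RPKM of these sums in vivo and 0.0487, 10.6 and 0.380 in NTM. The 16 cumulus cell markers summed to at most 0.0318 RPKM in vivo and to 2.75, 6.72 and 2.999 in NTM. Most of the last sum was Amhr2, the receptor of anti-Müllerian hormone, at 2.45, 6.72 and 2.83 RPKM in NTM, and 14 or 15 of the 16 markers were at 0 in each NTM library. The part of these cells in the results was not tested.

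Of the 9033 autosomal genes, 66 were called (0.731%, against 70 genes or 0.746% of the 9380 tested on all chromosomes), of which 49 rose in NTM blastulas (0.542%) and 17 fell (0.188%). The genes that fell were among the most abundant transcripts of the in vivo blastula, and those that rose were mostly near the detection limit there. All 17 that fell belonged to the quintile of genes with the highest mean level, 20.8 RPKM or more. Of the 49 that rose, 43 were below 1 RPKM in all 3 in vivo libraries. Without the call, 2594 genes (28.7%) had all 3 NTM values above all 3 in vivo values, and 382 (4.23%) had them all below, 32.9% together. An unadjusted p under 0.05 was reached by 2166 higher (24.0%) and 213 lower (2.36%) genes.

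The direction in which most called genes went depended on the scaling. The median difference of all genes tested was 0.87, and 74.3% of differences were above 0. After median-ratio scaling, which sets the libraries level on the 5358 genes above 0 in all 6 of them, the median was 0.34, and 1 gene was called higher and 16 lower. Of the 17 genes called then, 14 were among the 66. The filter also mattered, since 44 of the 49 genes that rose reached a mean of 0.5 RPKM only in the NTM group, while all 17 that fell reached it in both. Adjusted p-values of 57 of the 66 genes lay between 0.045 and 0.05, just inside the limit, and leaving out NTM replicate 1, NTM replicate 2, in vivo replicate 2 or in vivo replicate 3 left Ptp4a1 as the 1 gene called. Without NTM replicate 3, 1441 genes were called, and without in vivo replicate 1, 94.

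**Figure D2:**
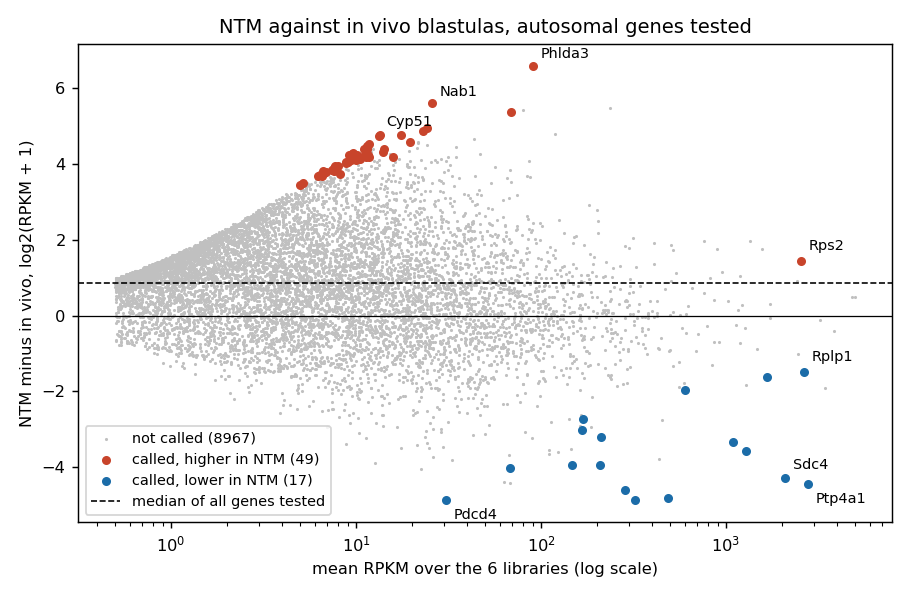
Mean RPKM over the 6 libraries (log axis) against the NTM minus in vivo difference on the log2(RPKM + 1) scale, 1 point per autosomal gene tested, with the 49 genes called higher in red and the 17 called lower in blue. The dashed line is the median of all 9033 genes at 0.87, the genes called lower lie at the right at high levels, and Ptp4a1 is the most abundant of them with a difference of -4.44.

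Ptp4a1, a protein tyrosine phosphatase with a prenyl anchor, had the lowest adjusted p of the comparison. It lies at chr1:30940302-30949309 on the minus strand (GRCm38, as are all gene positions here). Its level was 5149, 6181 and 4572 RPKM in the in vivo blastulas and 191.8, 260.5 and 283.0 in the NTM blastulas. The groups were far apart, with means of 5301 ± 814.9 and 245.1 ± 47.52 (SD, n = 3), a 21.6-fold lower level in NTM. The log2 difference was -4.44 with an SE of 0.25 and an adjusted p of 0.0009123 by limma. It was the 1 gene called in all 16 settings tried. NTC blastulas, which share their in vivo reference with the NTM group, had 334.4, 303.6 and 437.2 RPKM.

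Sdc4, syndecan-4, a heparan sulfate proteoglycan of the cell surface (chr2:164424247-164443887, minus strand), behaved alike. It was at 1958, 5322 and 4671 RPKM in vivo and at 255.8, 167.0 and 147.7 in NTM, a log2 difference of -4.30 (SE 0.43, adjusted p = 0.02998 by limma). In NTC it was at 140.6, 164.7 and 98.0. Set, which encodes a histone chaperone that also inhibits the phosphatase PP2A (chr2:30057378-30072577, plus strand), was at 1180, 2384 and 2403 RPKM in vivo and at 181.4, 203.3 and 173.0 in NTM. Its difference was -3.34 (SE 0.35, adjusted p = 0.02998 by limma). Neither gene overlapped between the groups, and in both the lowest in vivo library was replicate 1.

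The other named genes that fell have varied roles. Ptges3, the cochaperone p23 of Hsp90, was at 308.0, 592.2 and 972.7 RPKM in vivo and 13.7, 18.8 and 23.8 in NTM (log2 difference -4.87). Kdelr2, a receptor that returns resident proteins to the endoplasmic reticulum, was at 301.6, 742.8 and 594.8 in vivo and 16.5, 22.1 and 21.7 in NTM (-4.61). Gm2a, the lysosomal activator of ganglioside breakdown, was at 1589, 2794 and 2730 in vivo and 281.0, 113.4 and 224.2 in NTM (-3.57). For each of these genes the lowest in vivo value stood well above the highest NTM value. Actr2, a subunit of the actin-nucleating Arp complex, had 219.1, 500.3 and 454.3 RPKM in vivo and 25.8, 22.7 and 21.3 in NTM (-3.93). Foxn2, a forkhead transcription factor, had 81.1, 156.1 and 151.1 in vivo and 5.67, 4.55 and 11.2 in NTM (-4.03). Zfp985, a zinc finger gene, had 446.7, 1292 and 1072 in vivo and 34.5, 22.6 and 31.5 in NTM (-4.82). In vivo replicate 1 was the lowest of its group for all 6 of these genes, and no values overlapped between the groups. Zfp985 sits in a cluster of closely similar zinc finger genes on chromosome 4, so reads may have been split between them.

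Phlda3 rose most. It encodes a repressor of the kinase Akt and is a known target of p53 (chr1:135766119-135769136, plus strand). The gene was at 0.286, 2.47 and 0.335 RPKM in vivo and at 121.8, 198.4 and 221.8 in NTM, so that every NTM blastula had over 100 RPKM where in vivo blastulas had next to none. The mean was 175.2-fold higher in NTM, and the log2 difference was 6.60 (SE 0.72, adjusted p = 0.02998 by limma). In NTC blastulas it was at 144.4, 122.1 and 66.2. Nab1, a corepressor of Egr transcription factors, came next with 0.0155, 0.0570 and 0.0425 RPKM in vivo and 48.8, 35.7 and 70.1 in NTM, a difference of 5.61 (SE 0.66, adjusted p = 0.03083 by limma). All of its in vivo signal came from 5 reads. Tmem159, which encodes a protein of lipid droplets, was at 0.992, 1.27 and 4.07 RPKM in vivo and 107.7, 236.6 and 63.3 in NTM (log2 difference 5.38).

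The other genes with the largest rises, at log2 differences of 4.40 to 4.97, had adjusted p-values close to 0.05 by limma and came from several pathways. Rab17, a small GTPase of epithelial membrane traffic, was at 0, 0.763 and 0.175 RPKM in vivo and 83.5, 46.4 and 14.8 in NTM. Ptdss1, a phosphatidylserine synthase, was at 0.428, 0.307 and 1.04 in vivo and 42.6, 50.0 and 23.0 in NTM. Lncenc1, a long noncoding RNA of embryonic stem cells, was at 0, 0 and 0.0528 in vivo and 25.3, 25.3 and 29.8 in NTM. Its in vivo signal was 2 reads. Grk6, a kinase of G protein-coupled receptors (4.78), Abcd4, a lysosomal transporter of cobalamin (4.88), and Fech, the ferrochelatase of heme synthesis (4.53), rose as well. So did Cab39l, a scaffold of the LKB1 kinase (4.43), the pseudophosphatase Styx (4.40) and the zinc finger genes Zfp105 (4.49) and Zfp72 (4.41). Wee1, the kinase that holds cells before mitosis, was at 0.0656, 0.0602 and 0 RPKM in vivo and 17.1, 21.6 and 17.1 in NTM (4.23). It was the 1 gene of 57 tested cell cycle genes that was called, where 0.731% of all genes were. The median of that list was 0.67. In NTC blastulas Wee1 was at 12.8, 20.4 and 15.1 RPKM.

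Among the 49 genes that rose, 5 were at 0 in all 3 in vivo libraries, as were 880 of the 9033 genes tested. A gene at 0 in vivo could pass the filter only through the NTM group. All 5 are named here. They were Rdh11, a retinol dehydrogenase, Ufsp1, a protease of the UFM1 pathway, Ddit4l, an inhibitor of mTOR, the regenerating gene Reg1 and the small gene model Gm22107. Against the level that 3 reads would give in each in vivo library, their NTM means were at least 128.8-fold, 40.0-fold, 135.0-fold, 51.8-fold and 6.87-fold higher. NTM values of Rdh11 were 7.87, 10.3 and 11.7 RPKM. This bound covers counting error only, since reads without molecular identifiers are not independent molecules and RNA can be lost before amplification.

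Targets of p53 had the highest median of the lists with at least 8 genes tested. Of the 20 genes of the list, 19 were tested. Phlda3 and Pmaip1 rose and Pdcd4 fell, where 0.542% of all genes rose and 0.188% fell. In 12 genes all NTM values lay above all in vivo values, against a share of 28.7% over all genes. The median difference was 2.68, beside 0.87 for all genes tested, and 2.15 beside 0.34 after median-ratio scaling. Over the 13 members with a mean of at least 0.5 RPKM in both groups it was 2.57, beside 0.51 over all such genes.

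Of the genes that halt the cell cycle, Cdkn1a, the inhibitor p21 of cyclin-dependent kinases, was at 1.23, 2.16 and 0 RPKM in vivo and 11.3, 25.3 and 12.7 in NTM (3.10, SE 0.76, adjusted p = 0.05698 by limma, not called). Ccng1, cyclin G, was the most abundant of the list in NTM, at 379.1, 527.1 and 457.7 RPKM against 13.9, 29.9 and 1.27 in vivo (5.48, SE 0.94, adjusted p = 0.05071 by limma, not called). Btg2, an antiproliferative gene, was at 0, 0.0852 and 0.0318 in vivo and 7.25, 40.3 and 24.9 in NTM (4.32, not called). None of these overlapped between the groups. Among apoptosis genes, Pmaip1, which encodes the BH3-only protein Noxa, was at 0, 0.353 and 0.362 RPKM in vivo and 11.2, 30.4 and 28.4 in NTM (4.19, adjusted p = 0.04939 by limma). Bbc3, which encodes Puma, was at 0, 0.0582 and 0 in vivo and 9.44, 5.16 and 3.32 in NTM (2.68, not called). Bax, which opens the mitochondrial membrane, was at 20.4, 13.7 and 32.3 in vivo and 39.4, 27.7 and 55.1 in NTM, and the groups overlapped (0.88). Mdm2, the ubiquitin ligase that degrades p53 and is itself a p53 target, was at 1.31, 0.853 and 0.223 RPKM in vivo and 18.2, 32.4 and 14.7 in NTM (3.64, adjusted p = 0.05071 by limma, not called). The transcript of p53 itself, Trp53, was at 0.126, 4.02 and 0.409 in vivo and 6.14, 3.55 and 2.25 in NTM, with overlap (1.24, SE 0.77). Pdcd4, an inhibitor of translation initiation, ran against the list at 31.3, 45.8 and 103.3 RPKM in vivo and 1.74, 0.202 and 0.889 in NTM (-4.87, SE 0.76, adjusted p = 0.04938 by limma).

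**Figure D3:**
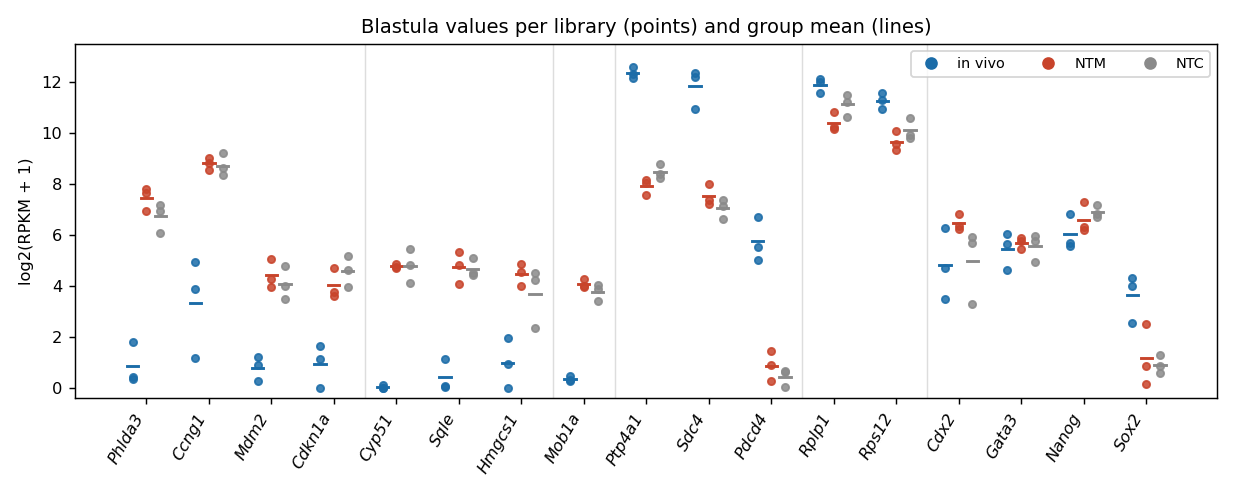
Levels of 17 genes as log2(RPKM + 1), 1 point per blastula library with lines at the group means, for in vivo (blue), NTM (red) and NTC (grey), grouped from left as p53 targets, sterol synthesis, Mob1a, the 3 named genes that fell, ribosomal proteins and lineage genes. Phlda3 and Cyp51 show NTM values far above in vivo values, Ptp4a1 and Sdc4 the reverse, and Gata3 and Nanog overlap.

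The promoters of Phlda3 and Cdkn1a are printed because the first had the largest rise among the genes called and the second, which was not called, is a classic target with a known p53 element, 250 bases before to 50 after the RefSeq start in GRCm38.p6, 5′ to 3′ on the strand of the gene. Phlda3 is chr1:135765835-135766134 on the plus strand and Cdkn1a is chr17:29090729-29091028 on the plus strand. Capitals mark a match to a pattern for the p53 response element, searched on both strands as a pair of decamers with a spacer of up to 13 bases. In Cdkn1a the decamer straight after the marked run misses the pattern at its first base, so it stays in lower case. Whether the marked run is the known element was not tested.
Phlda3: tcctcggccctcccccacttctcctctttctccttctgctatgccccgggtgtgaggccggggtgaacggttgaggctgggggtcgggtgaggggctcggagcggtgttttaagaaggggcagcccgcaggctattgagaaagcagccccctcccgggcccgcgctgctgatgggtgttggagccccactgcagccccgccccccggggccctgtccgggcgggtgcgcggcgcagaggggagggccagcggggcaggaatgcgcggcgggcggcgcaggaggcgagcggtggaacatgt
Cdkn1a: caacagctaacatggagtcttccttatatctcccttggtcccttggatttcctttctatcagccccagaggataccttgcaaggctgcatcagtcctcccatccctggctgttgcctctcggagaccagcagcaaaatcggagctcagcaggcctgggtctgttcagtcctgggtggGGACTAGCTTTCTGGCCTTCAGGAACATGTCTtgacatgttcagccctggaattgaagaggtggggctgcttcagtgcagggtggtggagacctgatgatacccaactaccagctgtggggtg
Cdkn1a had 2 RefSeq windows, and only the window with a match is printed. The match spans bases -73 to -42 from the start used for that window. It was found in 1 of the 23 promoter windows of the p53 list (4.35%), for which 16 of the 20 genes had a window, and in 24 of 32851 windows of all genes (0.0731%). A match is only a run of letters, and the window of Phlda3 held none.

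Sterol and lipid synthesis genes followed. Of 28 genes, 25 were tested. Cyp51 and Sqle rose (0.542% of all genes did), none fell, and 16 had all NTM values above all in vivo values, beside 28.7% of all genes. The median difference was 2.05, or 1.55 after median-ratio scaling, and 24 of the 25 differences were above 0. Over the 13 members that reached a mean of 0.5 RPKM in both groups the median was 1.42, beside 0.51 over all such genes.

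Along the pathway, an early step was low in vivo. Hmgcs1, the synthase that makes HMG-CoA, was at 0.945, 0 and 2.86 RPKM in vivo and 22.7, 28.4 and 15.2 in NTM (3.52, SE 0.77, adjusted p = 0.0523 by limma, not called). Of the later enzymes, Sqle, squalene epoxidase, was at 1.19, 0.0211 and 0.0628 RPKM in vivo and 27.3, 39.1 and 15.9 in NTM (4.32, SE 0.72, adjusted p = 0.04938 by limma). Cyp51, the lanosterol demethylase (chr5:4081145-4104746, minus strand), was at 0.0721, 0 and 0 in vivo and 25.3, 28.0 and 26.2 in NTM (4.75, SE 0.62, adjusted p = 0.04938 by limma). Its in vivo level came from 5 reads, all in replicate 1, and its NTM values were close to each other. In NTC blastulas Cyp51 was at 43.1, 27.3 and 16.5 RPKM and Sqle at 21.6, 33.0 and 20.6. A pair of regulators of the pathway overlapped between the groups. Srebf2, which encodes the SREBP factor of sterol synthesis, was at 0.0128, 96.5 and 8.15 in vivo and 34.1, 19.2 and 17.9 in NTM, with overlap (1.30, SE 1.5). Insig1, a sterol-dependent brake on SREBP, was at 11.3, 12.5 and 31.3 in vivo and 13.8, 12.3 and 10.1 in NTM (-0.43). The fatty acid desaturase Scd1 overlapped as well, at 41.1 to 53.2 RPKM in vivo and 27.5 to 90.4 in NTM (0.07).

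Promoters of an early and a late enzyme of the pathway follow, cut as above. Cyp51 is chr5:4104648-4104947 on the minus strand and Hmgcs1 is chr13:119690101-119690400 on the plus strand. Capitals mark the sterol regulatory element TCACNCCAC, which SREBP factors bind, searched on both strands.
Cyp51: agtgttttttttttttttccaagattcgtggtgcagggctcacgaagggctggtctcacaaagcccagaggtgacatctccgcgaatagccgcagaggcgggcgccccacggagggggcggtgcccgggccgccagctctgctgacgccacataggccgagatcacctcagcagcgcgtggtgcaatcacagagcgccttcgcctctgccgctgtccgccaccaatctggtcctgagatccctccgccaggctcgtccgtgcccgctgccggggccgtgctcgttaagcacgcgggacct
Hmgcs1: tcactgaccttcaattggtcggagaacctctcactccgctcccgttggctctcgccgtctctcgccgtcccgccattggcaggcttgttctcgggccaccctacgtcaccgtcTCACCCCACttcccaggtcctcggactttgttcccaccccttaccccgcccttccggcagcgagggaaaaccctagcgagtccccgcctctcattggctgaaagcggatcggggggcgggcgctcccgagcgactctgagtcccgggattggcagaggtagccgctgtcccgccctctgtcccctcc
The match in Hmgcs1 spans bases -137 to -129, and the window of Cyp51 held none. Only the pattern TCACNCCAC was searched, so variants of it would not be marked. The element stood in 1 of the 27 windows of the sterol list (3.7%, with 20 of 28 genes having a window) and in 408 of the 32851 windows of all genes (1.24%). The letters CCAAT, bound by NF-Y, stood in 19 of the 27 sterol windows (70.4%), in 12 of the 23 p53 windows (52.2%) and in 37.4% of all windows.

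The Hippo list, which held kinases, adaptors, cofactors and TEAD factors, had the next median. Of 16 genes, 14 were tested, Mob1a rose and none fell, where 0.542% and 0.188% of all genes did. In 9 genes all NTM values lay above all in vivo values and in 1 below, beside 28.7% and 4.23% of all genes. The median was 1.36, or 0.86 after median-ratio scaling, and 1.04 over the 10 members with a mean of at least 0.5 RPKM in both groups, beside 0.51 over all such genes. Mob1a and Stk4 are not among these 10. Mob1a, an adaptor that activates the LATS kinases, was at 0.239, 0.195 and 0.381 RPKM in vivo and 15.1, 14.8 and 18.6 in NTM (3.75, SE 0.62, adjusted p = 0.04938 by limma). Stk4, an MST kinase upstream of it, was at 0.0149 to 0.0435 in vivo and 5.27 to 10.8 in NTM (3.14, not called). Stk3, the other MST kinase of the list, went the other way. It was at 7.47, 17.1 and 0.0807 RPKM in vivo and 5.35, 0.255 and 0.493 in NTM, with overlap (-1.27, not called). On the cofactor side, Yap1 was at 1.89, 1.22 and 2.36 RPKM in vivo and 21.1, 18.1 and 6.47 in NTM (2.40, adjusted p = 0.0923 by limma, not called). Its paralog Wwtr1, which encodes TAZ, was at 81.1, 123.8 and 83.4 in vivo and 41.9, 61.2 and 34.9 in NTM (-1.06, not called). These cofactors thus lay on opposite sides with no overlap in either. Tead4, the TEAD factor of the trophectoderm, was at 0.566, 0.747 and 2.32 in vivo and 11.8, 9.98 and 2.33 in NTM, where the lowest NTM value barely cleared the highest in vivo value (1.89, not called).

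Ribosomal protein genes went the other way from the genes at large. Of 80 genes, 78 were tested, 4 fell and 1 rose, where 0.188% and 0.542% of all genes did. All NTM values lay below all in vivo values in 41 genes, against a share of 4.23% over all genes, and above them in 4, against 28.7%. Among all genes of the quintile with the highest mean level, 13.06% lay below and 10.35% above, with a median of 0.23. The median difference of the ribosomal protein genes was -0.87, or -1.54 after median-ratio scaling. Summed over the list, the level was 30310, 38510 and 37270 RPKM in vivo and 26560, 26990 and 27870 in NTM.

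The members differed in size and direction. Rpl36 was at 231.2, 315.3 and 337.3 RPKM in vivo and 50.8, 40.2 and 39.7 in NTM (-2.72, adjusted p = 0.04968 by limma). Rpl32 was at 911.0, 1052 and 887.8 in vivo and 205.1, 213.3 and 318.1 in NTM (-1.97). Rps12 was at 1956, 2521 and 3054 in vivo and 757.0, 644.3 and 1078 in NTM (-1.61). Rplp1, of the ribosomal stalk, fell too (-1.49), with adjusted p = 0.04938 by limma for it, Rpl32 and Rps12. Rps2, of the small subunit, rose from 1739, 1163 and 1227 RPKM in vivo to 3908, 3256 and 3940 in NTM (1.44, SE 0.20, adjusted p = 0.04938 by limma). Rplp0, also of the stalk, was at 888.4, 677.3 and 239.0 in vivo and 2021, 1870 and 2350 in NTM (1.98, adjusted p = 0.05526 by limma, not called). Ribosomal protein genes have many processed pseudogenes, and reads may have been split between a gene and its copies. Respiratory chain genes had 15 of 67 members with all NTM values below in vivo values (4.23% of all genes) and 6 above (28.7%), none called, and a median of -0.42. Mitochondrial ribosomal protein genes had a median of 0.66, with 2 of 75 below and 17 above, and none was called.

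**Figure D4:**
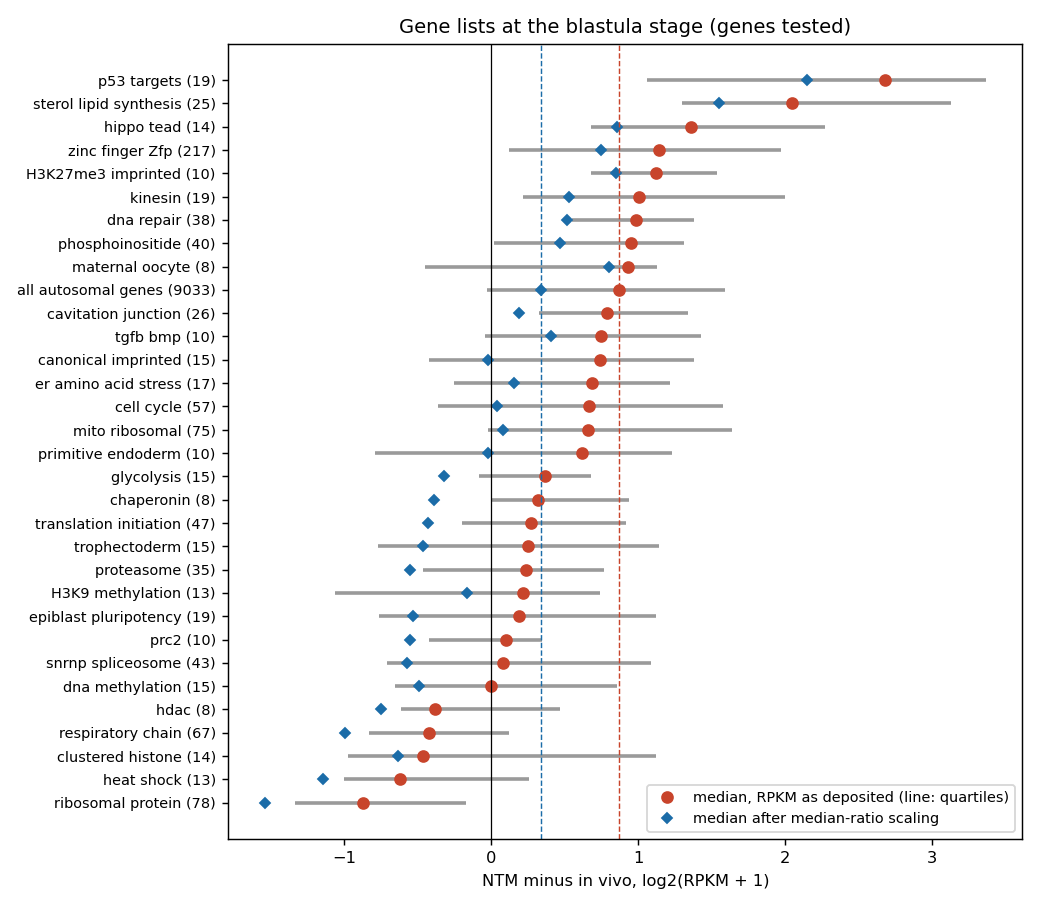
Median NTM minus in vivo difference in log2(RPKM + 1) of each gene list with at least 8 genes tested (number in brackets), with RPKM as deposited (red points, grey lines for the quartiles) and after median-ratio scaling (blue diamonds); dashed lines are the medians of all genes, 0.87 and 0.34. The p53 and sterol lists lie farthest to the right at 2.68 and 2.05, and ribosomal proteins farthest to the left at -0.87.

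Lineage markers were also compared. Trophectoderm and epiblast genes were present in both groups of blastulas, and none of those tested was called. Their presence did not check the labelled stage, since some were present in the in vivo morulas too. In those morulas Cdx2 was at 22.1, 7.51 and 19.4 RPKM and Gata3 at 9.58, 18.8 and 38.9. Cdx2, the transcription factor of the trophectoderm, was at 25.3, 75.8 and 10.2 RPKM in vivo and 75.2, 114.0 and 81.1 in NTM, with slight overlap (1.66, SE 0.79, adjusted p = 0.2232 by limma). Gata3, which acts beside it, was at 64.7, 24.0 and 49.6 in vivo and 53.3, 57.9 and 43.1 in NTM (0.25, SE 0.62), and this difference turned to -0.46 after median-ratio scaling. The keratins of the outer epithelium overlapped too. Krt8 was at 126.2, 374.1 and 459.5 RPKM in vivo and 214.5, 84.3 and 68.4 in NTM (-1.37), and Krt18 had a difference of -1.42. Eomes (0.93) and Elf5 (-0.38), later factors of the trophoblast, overlapped between the groups. Over the 15 trophectoderm genes tested, the median was 0.25, or -0.46 after median-ratio scaling.

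In the inner cell mass, Nanog was at 46.7, 113.0 and 50.2 RPKM in vivo and 78.7, 157.6 and 72.5 in NTM (0.58, SE 0.61, or -0.14 after median-ratio scaling). Pou5f1, which encodes Oct4, was low in all 6 libraries, at 2.86, 0.104 and 3.33 in vivo and 6.30, 6.12 and 3.18 in NTM (1.19), although it is a defining gene of these cells. Sox2, its partner on DNA, was at 19.2, 4.89 and 15.2 in vivo and 4.63, 0.125 and 0.799 in NTM, with no overlap (-2.47, SE 0.88, adjusted p = 0.1292 by limma, not called). Of the primitive endoderm, Gata6 was at 39.8, 2.49 and 1.39 RPKM in vivo and 100.9, 102.3 and 30.9 in NTM (3.32, adjusted p = 0.1244 by limma, not called). Gata4, another factor of this lineage, was at 0, 5.21 and 34.1 in vivo and 0, 0 and 0.136 in NTM, with overlap (-2.53, SE 1.17, adjusted p = 0.215 by limma, not called). The later factor Sox17 overlapped (-0.52), and Pdgfra was too low to be tested. The epiblast list had a median of 0.19 over 19 genes and the primitive endoderm list 0.62 over 10, which became -0.53 and -0.02 after median-ratio scaling.

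Genes of the epithelium and cavity gave a median of 0.79 over 26 genes tested, or 0.19 after median-ratio scaling, with 5 above, 1 below and none called, where 28.7% of all genes were above and 4.23% below. Atp1b1, a subunit of the sodium pump, was at 1.24, 2.16 and 0 RPKM in vivo and 3.29, 3.41 and 3.59 in NTM (1.21). Aqp3, a water channel, was at 56.4, 10.2 and 46.8 in vivo and 7.83, 10.1 and 4.65 in NTM (-1.93, SE 0.84, adjusted p = 0.1905 by limma). Dnmt1 (0.89) and Dnmt3b (0.00), the maintenance and de novo DNA methyltransferases, and the naive pluripotency factor Tfcp2l1 (0.91) were not called, and Tgfbr1 was too low to be tested.

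Genes imprinted through maternal H3K27me3, a histone mark that silences the maternal copy, were given for a class known to lose imprinting after NT. Of 15 such genes, 10 were tested and none was called. The median was 1.12, with 2 genes above and none below, where 28.7% and 4.23% of all genes were. Sfmbt2, needed in the placenta, was at 26.8, 0.0128 and 0.105 RPKM in vivo and 4.27, 3.45 and 3.47 in NTM, so 1 in vivo library was above every NTM value and the other two far below (0.58, SE 1.27). Gab1, an adaptor of receptor kinases, was at 14.3, 0.313 and 0.108 in vivo and 10.4, 14.5 and 10.1 in NTM (2.15), and Jade1 showed the same split (1.42). In vivo replicate 1 stood above the other in vivo libraries for each of these genes. Slc38a4, an amino acid transporter, was at 11.4, 28.7 and 20.6 in vivo and 13, 12.1 and 8.85 in NTM (-0.71), and Smoc1 had a difference of 0.64.

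For the remaining lists, the counts above and below are to be read beside the 28.7% and 4.23% of all genes. Counts of genes called are to be read beside 0.542% higher and 0.188% lower. Zinc finger genes named Zfp had a median of 1.14 over 217 genes, with 3 called higher (Zfp72, Zfp105 and Zfp930), 1 lower (Zfp985), 87 above and 7 below. DNA repair genes had a median of 0.99 over 38, with 12 above, none below and none called. Rad50, which binds DNA ends, was at 0, 0.174 and 0 RPKM in vivo and 3.15, 4.48 and 5.34 in NTM (2.31, not called). Kinesins had 9 of 19 above and a median of 1.01, and phosphoinositide genes 12 above and 3 below of 40 and a median of 0.95. Over members with a mean of at least 0.5 RPKM in both groups, the medians were 0.24 (11 kinesins) and 0.26 (21 phosphoinositide genes), beside 0.51 over all such genes. For DNA repair and Zfp genes they were 0.63 (23 genes) and 0.69 (116 genes). Heat shock genes had 4 of 13 below and 1 above and a median of -0.62. Among them Dnaja1, a cochaperone of Hsp70, was at 571.3, 538.8 and 581.8 in vivo and 305.6, 373.5 and 250.3 in NTM (-0.88, not called).

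NTM blastulas were also set against the other NT group. Of 9803 autosomal genes tested with limma, none was called between NTM and NTC blastulas (0.0%), and 294 had an unadjusted p under 0.05 (3.0%). Both NT groups are set against the same 3 in vivo libraries wherever their values stand side by side. The number of genes above 0 was 11771, 13000 and 11829 in NTC, beside 13568, 12548 and 11498 in NTM and 7808, 7804 and 7730 in vivo for all genes of the table.

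The same groups were compared at the morula, the stage before. An interaction term in limma tested whether NTM minus in vivo differed between the stages. It was called for 57 of 9218 genes (0.618%), of which 50 were more positive at the blastula (0.542%) and 7 more negative (0.0759%).

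Ptp4a1 was at 819.1, 822.1 and 830.8 RPKM in the in vivo morulas and 691.6, 502.0 and 342.0 in the NTM morulas, so the gap widened by -3.69 (SE 0.45, adjusted p = 0.003758 by limma). Sdc4 was at 23.2, 52.4 and 113.2 in the in vivo morulas and 72.1, 37.9 and 51.8 in the NTM morulas, with overlap, and its term was -4.30. In vivo blastulas were above in vivo morulas in both genes. NTM blastulas were below NTM morulas in Ptp4a1 and above them in Sdc4, by less than in vivo. Cyp51 moved on the NT side, at 0, 0.495 and 0.398 RPKM in the in vivo morulas and 0.874, 1.98 and 0.452 in the NTM morulas, with a term of 4.09 (adjusted p = 0.03422 by limma). Ptdss1 showed a drop on the in vivo side. It was at 14.7, 23.4 and 15.4 in the in vivo morulas and 28.2, 18.7 and 19.6 in the NTM morulas, against 0.307 to 1.04 in the in vivo blastulas (4.28, adjusted p = 0.03758 by limma).

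**Figure D5:**
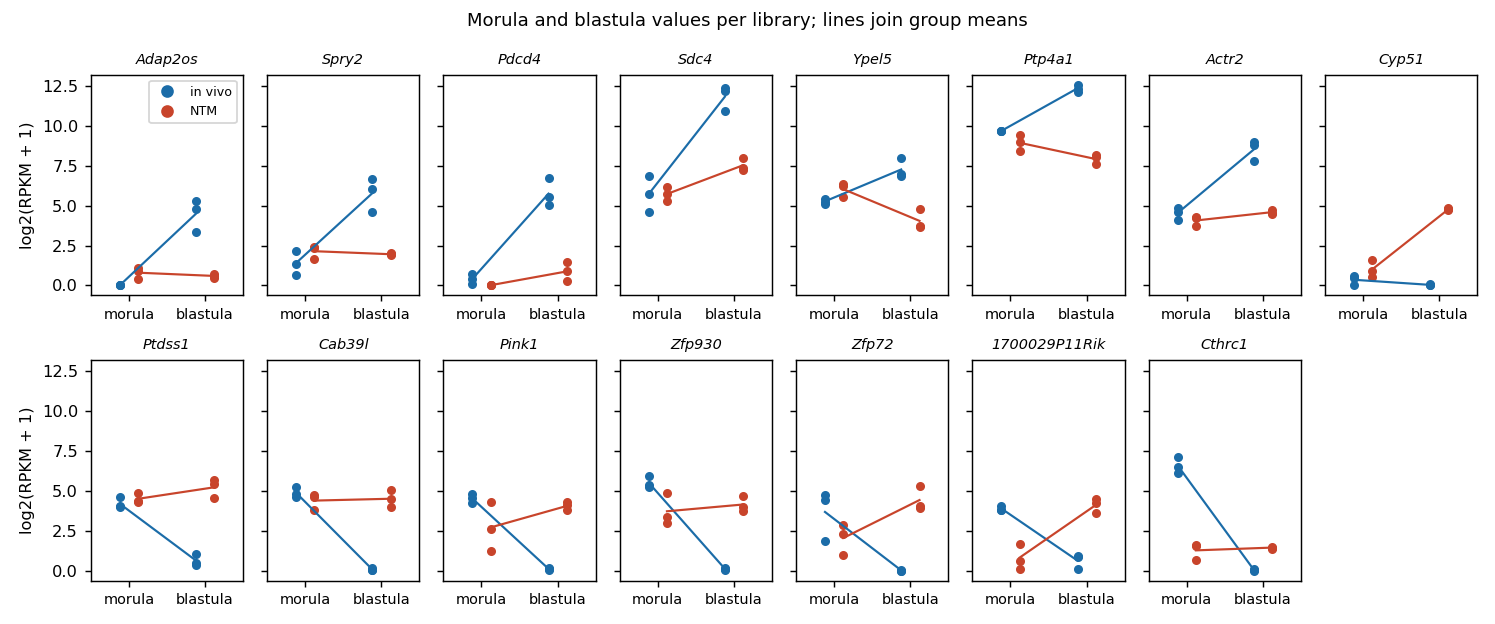
Levels of 15 genes with a called interaction as log2(RPKM + 1) at the morula and blastula, 1 point per library, in vivo in blue and NTM in red, with lines joining group means. Sdc4 and Pdcd4 climb more steeply from morula to blastula in vivo than in NTM, Ptp4a1 climbs in vivo and drops in NTM, while Cab39l and Pink1 are near 0 only in the in vivo blastula.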

How the data were processed

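The authors deposited RPKM values of 27238 genes in 60 libraries, made from single embryos by reverse transcription, poly(A) tailing, PCR without molecular identifiers and paired-end sequencing. According to the study's methods, adapter, redundant and low-quality reads were removed, which can compress high levels, reads were aligned with TopHat and Bowtie2 and counted with HTSeq. The submitters' processing notes name Bowtie 0.12.2 and the build mm8 as well. The values divided into whole reads at exon lengths of GENCODE M21 (GRCm38), which gave the depth of each library, and 3 reads on 2000 nt equal 0.0725 to 0.175 RPKM.

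Libraries were grouped by their labels. Genes with a mean of at least 0.5 RPKM over the libraries compared were fitted as log2(RPKM + 1) with limma 3.58.1 (lmFit, eBayes with a trend) in R 4.3.3, without a replicate block, on all chromosomes, and p-values were adjusted (Benjamini-Hochberg) over the whole table. Python 3.11.15 with numpy 2.4.6, scipy 1.17.1, pandas 2.3.3 and matplotlib 3.10.9 served for the rest. The 225 genes without a chromosome in GENCODE were left out of the autosomal counts. On simulated data of this comparison (9380 genes), 62% of 200 genes changed by 6 on the log2 scale were recovered with 3 false calls, and none of 200 changed by 3. In the deposited data some genes with differences below 3 were called, among them ribosomal protein genes. The simulation thus gives no lower limit for a change that could be called. P-values measure the spread between 3 embryos of a group.

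Members and lists were chosen with earlier results of these data known. The genes named are the 15 called genes with the largest rise and the 10 with the largest fall whose values did not overlap (leaving out 3 gene models, 2 higher and 1 lower), called members of the lists and a set of lineage genes. Some of these genes are not reported here. Interaction genes and uncalled members of lists given with values were chosen after their values were seen. Promoter windows are from RefSeq (GRCm38.p6). Alternatives were a pseudocount of 0.1, no filter, a filter at 5 RPKM, median-ratio scaling, the replicate number as a block, no limit on the fold, a joint fit of all 20 groups, thinned reads and leaving out each library. RPKM relative to nuclear reads and a mean of 0.5 RPKM in both groups were chosen after seeing the data.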

Additional observations from a re-analysis of the deposited data

Results flagged for a closer look

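For 57 autosomal genes the NTM minus in vivo difference was not the same at the blastula as at the morula, by the interaction term in limma. Those with the largest terms, or named for the blastula comparison, are given as blastula minus morula on the log2 scale. The more negative ones were Adap2os (-4.70), an antisense gene whose reads cannot be told from those of its partner without strand, Spry2 (-4.57), an inhibitor of receptor tyrosine kinase signalling, Pdcd4 (-4.48), Sdc4 (-4.30), Ypel5 (-3.99), Ptp4a1 (-3.69) and Actr2 (-3.46). The more positive ones were Cyp51 (4.09), Ptdss1 (4.28), Cab39l (4.93), the mitophagy kinase Pink1 (5.76), Zfp930 (5.83), Zfp72 (6.04), the gene model 1700029P11Rik (6.57) and Cthrc1 (6.72).

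Cthrc1, a secreted collagen-modifying protein, was at 70.5, 140.8 and 89.9 RPKM in the in vivo morulas and at most 0.0790 in the in vivo blastulas, while NTM embryos had 0.563 to 2.13 as morulas and 1.62 to 1.86 as blastulas. Spry2 was at 0.589 to 3.47 RPKM in the in vivo morulas and at 23.3, 64.8 and 102.4 in the in vivo blastulas, and NTM embryos had 2.16 to 4.37 as morulas and 2.74 to 3.05 as blastulas.

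Outside the autosomes, 4 genes were called between NTM and in vivo blastulas in the same fit, all higher in NTM. The X-linked homeobox gene Rhox5 was at 0.169, 0.155 and 0.808 RPKM in vivo and 70.2, 204.7 and 111.8 in NTM, a log2 difference of 6.46. The X-linked genes Acot9 and Siah1b differed by 5.39 and 3.91, and ENSMUSG00000099597, which has no chromosome in the annotation used, by 4.07. Sex and NT cannot be told apart in the X-linked values, and the part of sex was not tested.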

How the results depend on the processing

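The 66 genes called between NTM and in vivo blastulas became 1220 (1163 higher, 57 lower) with a pseudocount of 0.1, 2328 (2017 and 311) with 1 fit over all 20 groups and 945 (891 and 54) relative to nuclear reads, and each of these sets held all 66. They became 1 (lower) without a filter, 17 (4 and 13) with a filter at 5 RPKM, 17 (1 and 16) with median-ratio scaling, 9 (2 and 7) with thinned reads and 15 (3 and 12) among genes with a mean of 0.5 RPKM in both groups. Leaving out 1 library gave 1 to 1441 calls. Between NTM and NTC, 1 fit over all groups called 15 genes (9 and 6), and leaving out 1 library called none. The 57 stage differences became 256, 30 and 624 with the smaller pseudocount, median-ratio scaling and 1 fit, and 3 to 257 without 1 library, the highest without in vivo blastula replicate 1. The cause of these shifts was not tested.

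Replicate numbers did not pair the libraries. Deviations of same-numbered libraries correlated at -0.039, -0.023 and 0.0038. With a replicate block, 8 genes (1 higher, 7 lower), no NTM against NTC gene and 3 stage differences (2 and 1) were called.

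List medians under median-ratio scaling were 2.15 (p53), 1.55 (sterol), 0.86 (Hippo), -1.54 (ribosomal proteins), -0.99 (respiratory chain), -0.46 (trophectoderm), -0.53 (epiblast), 0.19 (cavitation), 0.85 (H3K27me3), 0.04 (cell cycle), 0.52 (DNA repair) and 0.08 (mitochondrial ribosome). With a pseudocount of 0.1, those for p53, sterol, Hippo, H3K27me3 and DNA repair were 4.53, 3.46, 2.49, 2.24 and 2.25. Leaving out 1 library gave 1.90 to 2.60 for sterol, 0.79 to 1.42 for H3K27me3 and -0.87 to 0.01 for heat shock genes, the last without NTM replicate 3. The epiblast median ran from -0.03 (without in vivo replicate 1) to 0.46, trophectoderm from 0.22 to 0.56, primitive endoderm from 0.27 to 0.87, cell cycle from 0.35 to 0.91, cavitation from 0.46 to 0.99 and respiratory chain from -0.63 to -0.22.

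Some uncalled genes changed sign. Median-ratio scaling gave -0.46 for Gata3, -0.14 for Nanog and -0.68 for Dnmt3b, and thinned reads gave -0.05 for Dnmt3b. Without 1 library, the range was -0.15 to 0.55 for Gata3, -1.06 to 0.49 for Elf5, -0.58 to 0.76 for Dnmt3b, -0.23 to 2.16 for Sfmbt2 and -0.28 to 1.84 for Smoc1. Of the other values of named genes under these settings, 538 kept their side of the threshold, 284 lost the call and 7 gained it.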
